A study of Mus musculus with 15 samples.

Results

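CD103+CD11b+ and CD103-CD11b+ dendritic cells (DCs) of the small intestinal lamina propria (LP) were compared here, on 6 of the 15 arrays of the series, 3 for each subset. The arrays were chosen by their labelled cell type, CD64-CD103+CD11b+ or CD64-CD103-CD11b+, and by no measured value. Cells of both subsets came from the small intestine of wild-type (WT) mice in the steady state, so that neither group carried a deletion, a transgene or a treatment. The study's methods name WT C57BL/6 mice, 6 to 12 weeks of age and of both sexes, and the labels give no age or sex for an array. Peyer's patches were cut out, the epithelium was stripped with EDTA, and the LP was digested with collagenase before the sort. The gate left out cells with surface CD64, a receptor for IgG that marks intestinal macrophages (mϕ). The labels number the replicates and do not say how many mice stand behind an array. The p-values measure the spread between arrays of a subset, part of which may be technical. That spread was taken over the 6 arrays and the 3 of CD103+CD11b- DCs. The other 9 arrays hold CD103+CD11b- DCs, CD103-CD11b- DCs and CD64+ mϕ, again with 3 arrays each.

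Conventional DCs of the gut wall take up antigen, travel in lymph to the mesenteric nodes and present it to T cells. CD103 is the αE chain of an integrin that binds E-cadherin on epithelial cells and is induced by transforming growth factor β (TGFβ) on several kinds of mucosal leukocyte, and CD11b is the αM integrin chain found on most myeloid cells. DCs that carry both are abundant in the small intestine and rare elsewhere, and CD11b+ DCs without CD103 share surface proteins with monocytes and mϕ. The comparison asked which genes other than the one encoding CD103 separate the CD11b+ subsets.

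Each value is a log2 signal of 1 probeset on an array of 1 sample, and a difference of 1 is a 2-fold change in signal. Signals of different probesets are not on 1 scale, so levels are compared between arrays and never between genes. Over the 19938 genes, which do not count as replicates, Pearson's r was 0.993 to 0.995 between arrays of CD103+CD11b+ DCs, 0.991 to 0.992 between arrays of CD103-CD11b+ DCs, and 0.986 to 0.989 between the subsets. The number of arrays, 3 for each subset, limits the precision of every value. In RNA of a whole sorted population, fewer cells of a type cannot be told apart from less RNA in each cell.

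The genes behind the sort followed the labels. *Itgae*, which encodes CD103, had log2 signals of 10.55, 10.24 and 10.35 in CD103+CD11b+ DCs against 8.32, 7.54 and 7.66 in the CD103-CD11b+ subset, a 5.81-fold difference that the sort itself selects (log2 difference 2.54, SE 0.17, adjusted p = 7.1e-05). *Itgam*, which encodes CD11b, had 9.44, 9.65 and 9.60 in CD103+CD11b+ DCs against 9.51, 9.55 and 9.54, and the groups overlapped. *Flt3*, the receptor for a growth factor of DCs, lay at 9.60 ± 0.13 (SD, n = 3) in CD103+CD11b+ DCs against 9.47 ± 0.09 in the CD103-CD11b+ subset and 5.31 ± 0.15 in CD64+ mϕ. *Itgax*, which encodes CD11c, and the class II gene *H2-Ab1* differed by 0.18 and 0.06 (adjusted p = 0.47 and 0.856). The gene for CD64, *Fcgr1*, was low on all 6 arrays but not equally so. It had 3.85, 3.78 and 3.99 in CD103+CD11b+ DCs against 4.80, 4.59 and 5.02 in the CD103-CD11b+ subset, with no overlap, and 8.92 ± 0.21 in mϕ (log2 difference -0.93, SE 0.12, adjusted p = 0.00193). This was short of the log2 threshold given next, which *Fcgr1* passed without CD103-CD11b+ replicate 2 (log2 difference -1.04, adjusted p = 0.00208).

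A gene was called when limma's moderated test gave a Benjamini-Hochberg adjusted p under 0.01 and the log2 difference exceeded 1 in size. Of 19938 genes, 46 were higher in CD103+CD11b+ DCs, which is 0.231% of the genes tested, and 61 were lower, which is 0.306%. These shares are the background for each count of called genes in a list below. The 3 arrays of one subset did not overlap with the 3 of the other for any of these 107 genes, which held for 16.5% of all genes. Among the called genes the median log2 difference was 1.25 for the higher and -1.50 for the lower genes, while over all genes it was -0.01, and the 5th and 95th percentiles were -0.29 and 0.28. Called differences over 2 in size were found for 4 higher genes (*Gp2*, *Cpm*, *Itgae* and *Plet1*) and 11 lower genes. The SE of a called difference was 0.17 at the median and 0.07 to 0.38 in all. With the spread of the 6 compared arrays alone, 34 genes were higher and 45 lower, and 79 of the 107 calls were kept. The counts leaned on single arrays. Without CD103-CD11b+ replicate 3, 23 genes were higher and 36 lower, and without CD103+CD11b+ replicate 1 or 2 the lower genes numbered 35 and 39. Of the 107 genes, 51 (20 higher and 31 lower) were called whichever of the 6 arrays was left out. All 107 kept their direction in each of these fits, which could not be otherwise for genes whose arrays do not overlap between the subsets.

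**Figure D1:**
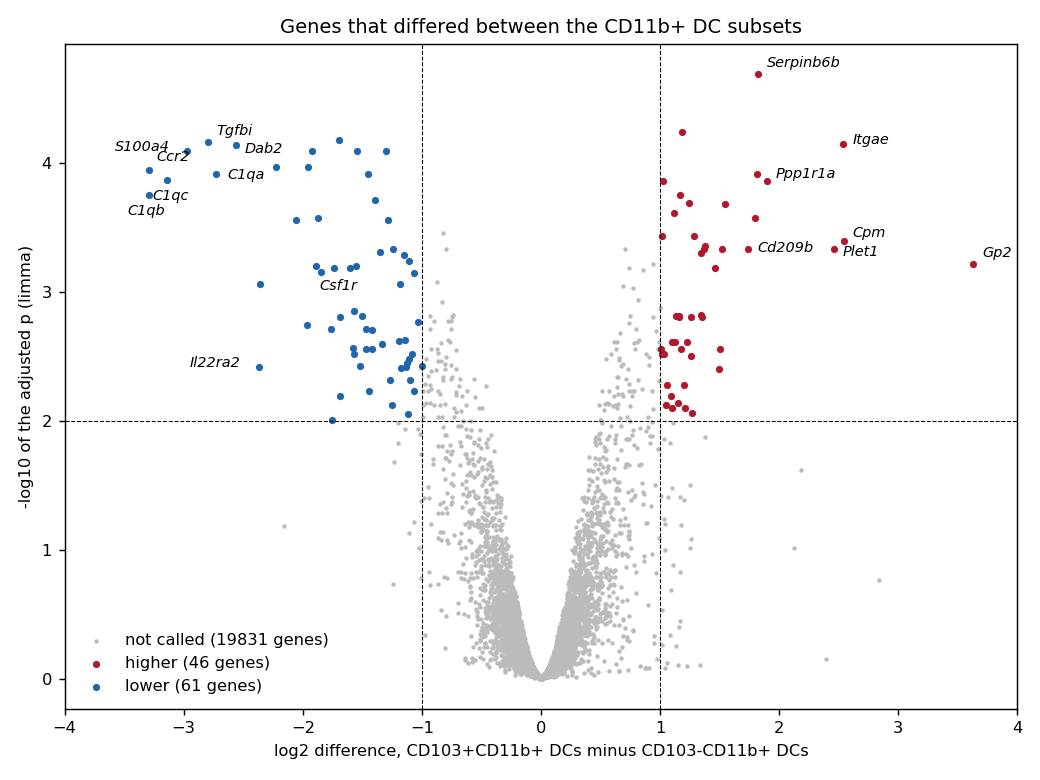
Each point is 1 of 19938 genes, with the log2 difference (CD103+CD11b+ minus CD103-CD11b+ DCs) on the x axis and -log10 of limma's adjusted p on the y axis. Dashed lines mark the thresholds, beyond which lie 46 higher genes (red), led in size by *Gp2*, and 61 lower genes (blue), led by *C1qb* and *Ccr2*.

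Of the 15 called differences over 2 in size, 11 were of genes lower in CD103+CD11b+ DCs. The 3 genes for the chains of C1q, the recognition molecule of the classical complement pathway, were among the 6 largest of these. *C1qb* had log2 signals of 5.25, 5.33 and 6.43 in CD103+CD11b+ DCs against 9.07, 8.68 and 9.13 in the CD103-CD11b+ subset. The 9.79-fold difference was many times its error (log2 difference -3.29, SE 0.28, adjusted p = 1.8e-04). *C1qc* had 6.10, 5.77 and 6.61 against 9.54, 8.76 and 9.60 (log2 difference -3.14, SE 0.26, adjusted p = 1.4e-04), and *C1qa* had 5.73, 6.18 and 6.53 against 9.01, 8.66 and 8.95 (log2 difference -2.73, SE 0.22, adjusted p = 1.2e-04). On all 3 genes CD103+CD11b+ replicate 3 was the highest array of its subset and still over 2 log2 units below the lowest array of the other. The genes lie next to each other on mouse chromosome 4 in the RefSeq annotation. In CD64+ mϕ the levels were higher again, at 11.89 ± 0.58 for *C1qb*, 12.24 ± 0.20 for *C1qc* and 12.32 ± 0.08 for *C1qa*. In CD103+CD11b- DCs they were 4.97 ± 0.34, 5.69 ± 0.31 and 5.60 ± 0.38, below those of CD103+CD11b+ DCs.

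The stretch of 250 bases before the RefSeq start of *C1qb* (chr4:136886201-136886450, minus strand) and of *C1qc* (chr4:136892915-136893164, minus strand), both from build GRCm38.p6, are shown because these neighbours fell together. Capitals mark matches, on either strand, to 4 motifs of factors active in myeloid cells: TGCTGA (MAF half-site), GAGGAAGT (PU.1 type), TGACTCA (AP-1) and GTCTAGAC (SMAD). *C1qb* held a MAF half-site and *C1qc* a PU.1 type match.
C1qb: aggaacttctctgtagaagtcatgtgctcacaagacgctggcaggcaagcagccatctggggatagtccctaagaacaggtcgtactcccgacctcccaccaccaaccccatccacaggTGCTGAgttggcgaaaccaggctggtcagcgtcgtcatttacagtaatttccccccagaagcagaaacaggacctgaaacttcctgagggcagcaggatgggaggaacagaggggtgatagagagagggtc
C1qc: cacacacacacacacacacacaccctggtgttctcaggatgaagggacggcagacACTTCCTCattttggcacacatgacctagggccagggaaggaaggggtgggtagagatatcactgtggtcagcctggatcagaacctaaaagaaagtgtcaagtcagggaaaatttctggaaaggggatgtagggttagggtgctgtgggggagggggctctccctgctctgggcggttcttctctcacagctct

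Such matches were about as frequent in the called genes as in all genes with a promoter window. The MAF half-site occurred before 11 of 50 lower genes with a window (22%) and 7 of 38 higher genes (18.4%), against 16.8% of 15614 measured genes. The AP-1 motif occurred before 3 lower genes and 1 higher gene, against 4.75% of all, and the PU.1 type motif before 1 of each, against 2.59%. The SMAD motif had no match before a called gene and was present before 0.237% of all. A match to these letters is a description of the sequence and not a binding site.

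*Cfb*, which encodes complement factor B of the alternative pathway, was also lower, with 6.17, 5.94 and 6.19 in CD103+CD11b+ DCs against 7.13, 7.10 and 7.61 in the CD103-CD11b+ subset (log2 difference -1.18, SE 0.13, adjusted p = 8.7e-04). It was the fourth called gene among 17 measured complement components and receptors, of which none was higher. Over all genes 0.306% were called lower and 0.231% higher. The median difference of the list was -0.17, against -0.01 over all genes. The classical pathway protease gene *C1ra* differed by -0.02, *C1s1* by 0.40 and *C2* by -0.14, none of which passed. *C3ar1*, the receptor for the fragment C3a, differed by -0.82 (adjusted p = 0.043).

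The median difference of 21 measured mϕ markers was -0.53. Of the 21, 8 were lower and 0 higher in CD103+CD11b+ DCs, against 0.306% and 0.231% of all genes. Beside the C1q genes these were *Mrc1*, the mannose receptor, *Apoe*, the lipid carrier apolipoprotein E, *Csf1r*, the receptor for CSF1, *Msr1*, a scavenger receptor, and *Cx3cr1*, the fractalkine receptor. *Mrc1* had 3.88, 3.90 and 4.10 in CD103+CD11b+ DCs against 6.48, 5.53 and 6.05 in the CD103-CD11b+ subset (log2 difference -2.06, SE 0.19, adjusted p = 2.8e-04), and lay at 10.49 ± 0.07 in mϕ. *Apoe* had 8.50, 8.15 and 9.01 against 10.55, 10.25 and 10.54 (log2 difference -1.89, SE 0.20, adjusted p = 6.3e-04). *Csf1r* had 7.10, 6.71 and 7.09 against 8.92, 8.30 and 8.89 (log2 difference -1.74, SE 0.19, adjusted p = 6.6e-04). The subsets did not overlap for any of these genes. *Msr1* differed by -1.58 and *Cx3cr1* by -1.34 (adjusted p = 0.00271 and 0.00254). The call on *Msr1* was lost without CD103+CD11b+ replicate 1 or 3 or CD103-CD11b+ replicate 3 (adjusted p up to 0.0183), and that on *Cx3cr1* without CD103+CD11b+ replicate 1 or 2 (adjusted p up to 0.014). The study made its own gene lists from these arrays, and they hold these genes and many other called genes, so that no direction given here is independent evidence.

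Other mϕ markers did not pass. *Mertk*, the receptor that binds dying cells, was at 3.87 ± 0.14 in CD103+CD11b+ DCs against 4.21 ± 0.17 in the CD103-CD11b+ subset and 7.52 ± 0.24 in mϕ (log2 difference -0.34, SE 0.11, adjusted p = 0.176). *Cd163*, the haemoglobin scavenger receptor, differed by -0.34 (adjusted p = 0.266), *Lyz2*, lysozyme, by -0.53 (adjusted p = 0.0248) and *Cd68* by 0.05 (adjusted p = 0.883). *Adgre1*, a surface receptor of many mϕ, had the opposite sign, with 8.09, 7.73 and 7.50 in CD103+CD11b+ DCs against 7.25, 6.23 and 6.81 (log2 difference 1.005, SE 0.22, adjusted p = 0.0383), and it passed with the replicate number as a block (adjusted p = 0.00978). The mean signal of the 21 markers was 6.06 to 6.24 on the arrays of CD103+CD11b+ DCs, 6.87 to 7.21 on those of CD103-CD11b+ DCs and 9.82 to 10.13 on those of mϕ. The mean of the list thus differed between the subsets, while 13 of its 21 markers were not called. The list was chosen with earlier results of these data known. The part of mϕ markers in the differences of other genes was not tested.

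Followed across the 5 populations, the 61 lower genes had their highest median log2 signal in CD64+ mϕ, at 8.98. It was 6.03 in CD103+CD11b+ DCs against 7.53 in the CD103-CD11b+ subset, 7.07 in CD103-CD11b- DCs and 5.63 in the CD103+CD11b- subset. The 46 higher genes had medians of 7.44 in CD103+CD11b+ DCs against 5.98 in the CD103-CD11b+ subset, 6.19 in the CD103+CD11b- subset, 5.92 in CD103-CD11b- DCs and 5.28 in mϕ. The genes were called for their difference between the CD11b+ subsets, so the gap between the medians of those subsets was fixed by the selection. All medians compare the same genes between populations and were not tested. Over all genes they lay between 5.03 and 5.10 in each population.

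**Figure D2:**
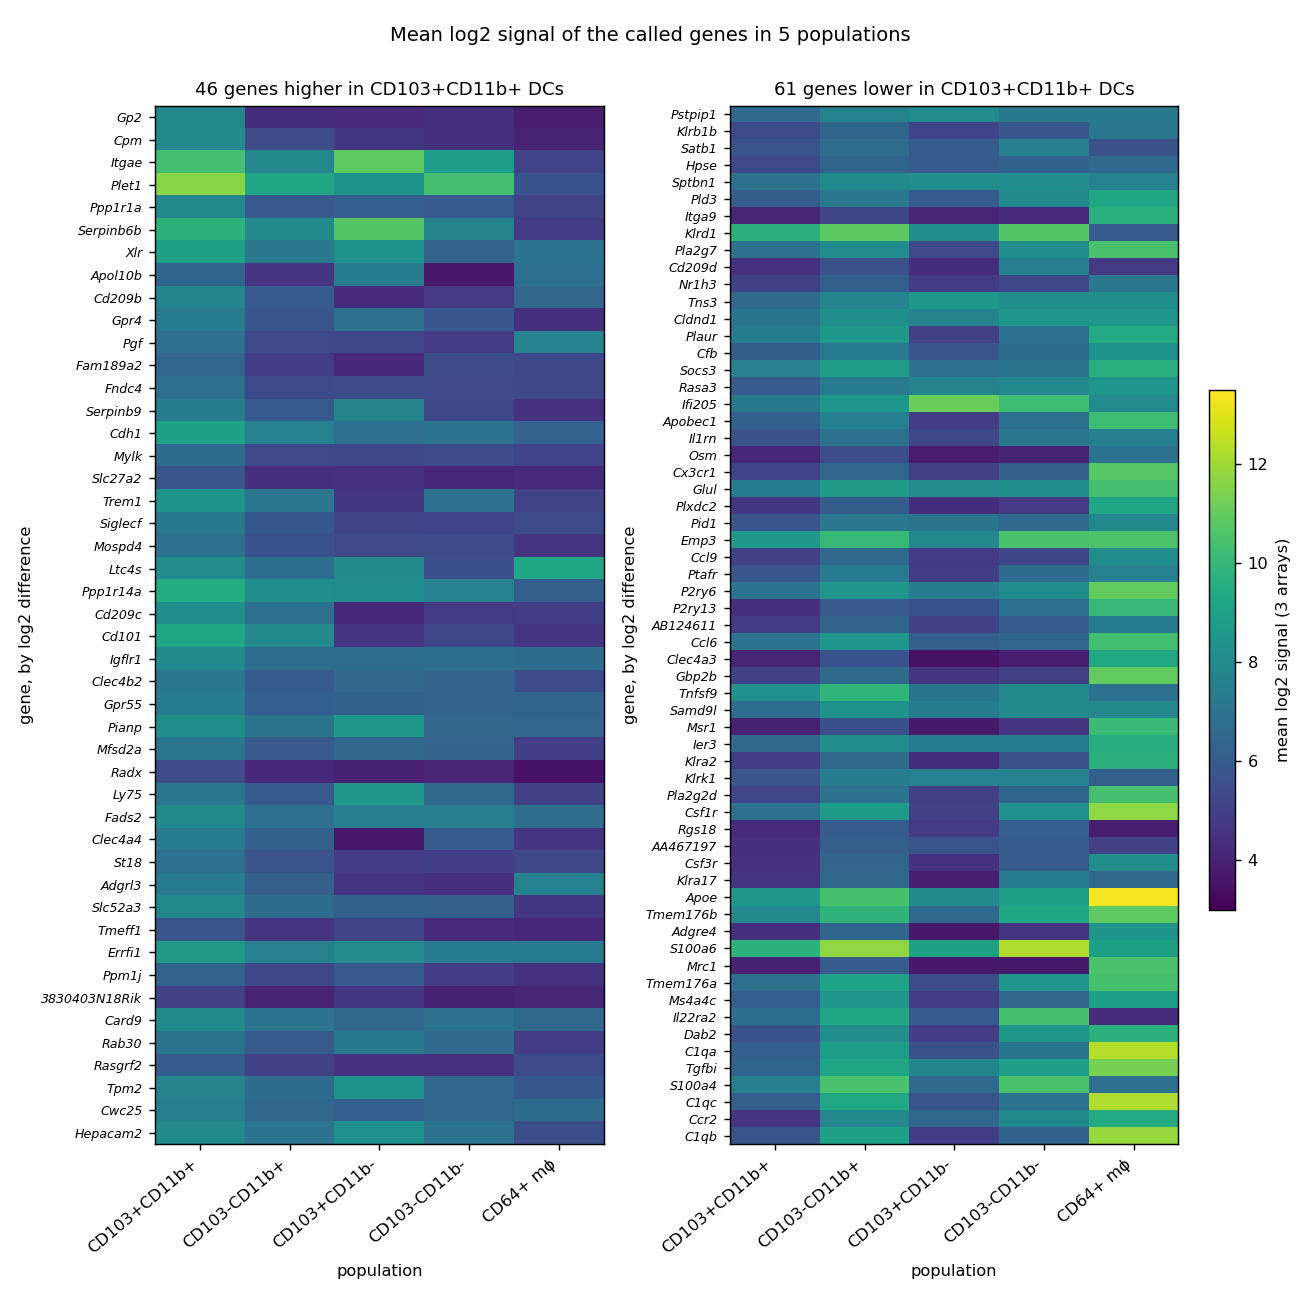
Mean log2 signal (colour, 3 arrays each) of the 46 higher genes (left) and the 61 lower genes (right) in the 5 sorted populations, with genes in the order of their log2 difference. Colours are to be compared along a row. In the right panel the median is highest in the CD64+ mϕ column (8.98), while *Il22ra2*, for example, is darker there (4.33) than in CD103+CD11b+ DCs (6.81).

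Some lower genes had a lower mean in mϕ than in either CD11b+ DC subset. *S100a4*, a calcium-binding protein of motile cells, had 7.37, 7.45 and 7.66 in CD103+CD11b+ DCs against 10.36, 10.29 and 10.76 in the CD103-CD11b+ subset, a 7.86-fold difference (log2 difference -2.98, SE 0.22, adjusted p = 8.0e-05), and 6.85 ± 0.29 in mϕ. *S100a6*, which lies in the same gene cluster, had 9.50, 9.84 and 10.07 against 11.97, 11.51 and 11.82 (log2 difference -1.96, SE 0.25, adjusted p = 0.0018), and 8.98 ± 0.21 in mϕ. For both genes the mean in mϕ was below that in CD103+CD11b+ DCs. Both genes were at their highest mean in CD103-CD11b- DCs, at 10.49 ± 0.25 and 12.25 ± 0.09, close to CD103-CD11b+ DCs. Of 17 measured S100 genes these were the only ones called, where 0.306% of all genes were lower and 0.231% higher. *S100a8* and *S100a9*, the calprotectin genes of neutrophils and monocytes, differed by -0.23 and -0.52 (adjusted p = 0.376 and 0.576). Leaving out single arrays ended the call on *S100a6*, without CD103+CD11b+ replicate 1 or CD103-CD11b+ replicate 1 or 3 (adjusted p up to 0.013).

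*Il22ra2*, the soluble receptor that binds and blocks IL-22, had 6.79, 6.71 and 6.92 in CD103+CD11b+ DCs against 9.82, 9.01 and 8.71 in the CD103-CD11b+ subset (log2 difference -2.37, SE 0.34, adjusted p = 0.00385). It lay at 10.45 ± 0.32 in CD103-CD11b- DCs and 4.33 ± 0.36 in mϕ. The subsets did not overlap, but the call was lost whichever of the 6 arrays was left out (adjusted p up to 0.0217). *Tnfsf9*, the costimulator known as 4-1BB ligand, had 8.09, 8.66 and 8.22 against 10.06, 9.97 and 9.63 (log2 difference -1.57, SE 0.19, adjusted p = 0.00142). These were the 2 called genes, both lower, of 29 measured T cell polarising cytokines and costimulators, against 0.306% of all genes called lower. For the cytokine genes *Il6*, *Il10*, *Il12b*, *Il23a* and *Il1b* the differences were 0.00, -0.28, -0.46, -0.16 and -0.07, none of which passed (adjusted p = 0.336 or more).

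*Ccr2*, the chemokine receptor on which monocytes depend to leave the bone marrow, had 4.36, 4.43 and 4.90 in CD103+CD11b+ DCs against 7.98, 7.21 and 8.37 in the CD103-CD11b+ subset, a 9.78-fold difference (log2 difference -3.29, SE 0.26, adjusted p = 1.1e-04). Its level was higher in each of the other 3 populations than in CD103+CD11b+ DCs, at 6.50 ± 0.25 in the CD103+CD11b- subset, 7.92 ± 0.44 in CD103-CD11b- DCs and 9.40 ± 0.13 in mϕ. Of 17 measured monocyte markers, *Ccr2*, *Ms4a4c* (-2.36) and *Csf3r*, the receptor for G-CSF (-1.85), were lower and none was higher. The median difference of the list was -0.42, and over all genes 0.306% were called lower and 0.231% higher. *Plac8*, *Vcan* and *Chil3*, which are abundant in classical monocytes, differed by 0.07, 0.14 and 0.01 and did not pass. Of 19 chemokine receptors only *Ccr2* and *Cx3cr1* were called, and the call on *Cx3cr1* was lost without CD103+CD11b+ replicate 1 or 2 (adjusted p up to 0.014). *Ccr7*, which guides DCs to lymph nodes, differed by -0.10 (adjusted p = 0.925).

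Of 23 chemokines 2 were lower and none was higher (median -0.29), against 0.306% and 0.231% of all genes. *Ccl6* had 6.71, 7.15 and 7.16 in CD103+CD11b+ DCs against 8.43, 8.42 and 8.73 (log2 difference -1.52, SE 0.22, adjusted p = 0.00373), and its neighbour on the chromosome, *Ccl9*, had 4.80, 5.17 and 5.17 against 7.08, 6.03 and 6.36 (log2 difference -1.44, SE 0.22, adjusted p = 0.00592). Both encode chemokines of the CC type, and neither gene overlapped between the subsets. Neither call was stable to the loss of an array. That on *Ccl6* was lost whichever of the 6 arrays was left out (adjusted p up to 0.0239) and that on *Ccl9* without CD103+CD11b+ replicate 1, 2 or 3 or CD103-CD11b+ replicate 3 (adjusted p up to 0.0342). *Ccl4*, which attracts monocytes and T cells, differed by -0.91 (adjusted p = 0.0199).

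*Tgfbi*, an extracellular matrix protein induced by TGFβ, had 6.31, 6.02 and 6.86 in CD103+CD11b+ DCs against 9.39, 8.99 and 9.22 in the CD103-CD11b+ subset (log2 difference -2.80, SE 0.19, adjusted p = 6.9e-05). *Itgae*, itself a TGFβ target, went the other way, but the sort on CD103 itself selects that difference. *Tgfbi* and *Itgae* were the only genes called among 21 measured TGFβ targets, whose median difference was -0.01. *Smad7*, an inhibitor that TGFβ signalling induces, differed by 0.32 (adjusted p = 0.406), *Skil* by -0.15 and *Id2* by 0.49 (adjusted p = 0.0534). None of 37 genes for SMADs and for TGFβ ligands and their receptors was called by limma. With 0.231% of all genes called higher and 0.306% lower, this count is the background. Without adjustment 1 of the 37 was higher and 6 were lower at p under 0.05, a cut that 2484 of all 19938 genes passed. The *t*-test that the study's methods name for comparing groups, applied here to the 6 arrays, found none at that cut that also differed by over 1. *Tgfbr1*, the receptor that the study deleted in other mice, had 7.53, 7.30 and 7.56 in CD103+CD11b+ DCs against 8.04, 7.46 and 7.78, and the groups overlapped (log2 difference -0.30, SE 0.13, adjusted p = 0.393). *Tgfbr2* differed by -0.14 (adjusted p = 0.762).

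The neighbours *Tmem176a* and *Tmem176b*, which encode related membrane channels, fell together. *Tmem176a* had 6.74, 6.59 and 7.29 in CD103+CD11b+ DCs against 9.21, 8.89 and 9.19 in the CD103-CD11b+ subset (log2 difference -2.22, SE 0.17, adjusted p = 1.1e-04). *Tmem176b* had 7.84, 7.69 and 8.17 against 9.85, 9.62 and 9.99 (log2 difference -1.92, SE 0.14, adjusted p = 8.0e-05). The order of the populations was the same for both genes, with the highest means in mϕ, 10.43 ± 0.07 and 10.88 ± 0.18, and the lowest in CD103+CD11b- DCs, 5.54 ± 0.19 and 6.54 ± 0.17. They are read in opposite directions from starts that lie close together, and each has several starts. Windows of 250 bases before a start of each shared 0 to 219 bases, depending on the starts taken. The window of *Tmem176a* from the pair that shares most is shown (GRCm38.p6, chr6:48841406-48841655, plus strand). Capitals mark the bases it shares with that window of *Tmem176b*.
Tmem176a: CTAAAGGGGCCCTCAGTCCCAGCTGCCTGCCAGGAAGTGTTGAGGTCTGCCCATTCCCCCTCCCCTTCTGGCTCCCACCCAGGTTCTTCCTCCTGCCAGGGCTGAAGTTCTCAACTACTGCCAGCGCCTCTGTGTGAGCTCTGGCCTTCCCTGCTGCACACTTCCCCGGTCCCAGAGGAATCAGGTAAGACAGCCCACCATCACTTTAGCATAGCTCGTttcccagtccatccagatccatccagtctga

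*Dab2*, an endocytic adaptor, had 5.31, 5.72 and 5.88 in CD103+CD11b+ DCs against 8.12, 7.90 and 8.58 in the CD103-CD11b+ subset (log2 difference -2.57, SE 0.18, adjusted p = 7.3e-05). A second, dimmer probeset of *Dab2* differed by 0.10 (adjusted p = 0.682). *Dab2* and *Msr1* were the 2 called genes of 30 scavenger and uptake genes, both lower, against 0.306% of all genes called lower. The call on *Msr1* was lost without CD103+CD11b+ replicate 1 or 3 or CD103-CD11b+ replicate 3 (adjusted p up to 0.0183). In lipid handling *Nr1h3*, which encodes the oxysterol receptor LXRα, differed by -1.14 beside *Apoe*, and *Slc27a2*, a fatty acid transporter, was higher by 1.35. The call on *Nr1h3* was lost without CD103+CD11b+ replicate 1, 2 or 3 or CD103-CD11b+ replicate 1 or 3 (adjusted p up to 0.021), and that on *Slc27a2* without CD103+CD11b+ replicate 1 or CD103-CD11b+ replicate 3 (adjusted p up to 0.0104). *Abca1*, a cholesterol exporter that LXR induces, differed by -0.18 and *Lpl*, lipoprotein lipase, by -0.37 (adjusted p = 0.452 and 0.0298).

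*Pla2g2d*, a secreted phospholipase A2, had 5.30, 5.13 and 5.32 in CD103+CD11b+ DCs against 7.07, 6.97 and 6.79 in the CD103-CD11b+ subset (log2 difference -1.69, SE 0.11, adjusted p = 6.6e-05). *Ptafr*, the receptor for platelet-activating factor, had 5.76, 6.01 and 5.70 against 7.36, 7.23 and 7.25 (log2 difference -1.46, SE 0.12, adjusted p = 1.2e-04), and *Pla2g7*, which degrades that factor, differed by -1.11 (adjusted p = 0.00883). *Ltc4s*, the enzyme that makes leukotriene C4, was higher, with 8.64, 7.78 and 7.73 in CD103+CD11b+ DCs against 6.99, 6.55 and 6.81 (log2 difference 1.27, SE 0.21, adjusted p = 0.00876). Of 30 measured genes of this list, 1 was higher and 3 were lower, against 0.231% and 0.306% of all genes. The calls on *Pla2g7* and *Ltc4s* were lost whichever of the 6 arrays was left out (adjusted p up to 0.0388 and 0.0439). *Ptgs2*, the inducible cyclooxygenase, differed by 0.18 (adjusted p = 0.844).

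Among the called genes were 5 receptors of the NK gene complex, all lower. *Klrd1*, which encodes CD94, had 9.57, 9.62 and 10.01 in CD103+CD11b+ DCs against 10.75, 10.70 and 11.06 in the CD103-CD11b+ subset (log2 difference -1.11, SE 0.16, adjusted p = 0.00333), and its neighbour *Klrk1*, which encodes NKG2D, had 5.26, 6.07 and 5.97 against 7.41, 7.16 and 7.81 (log2 difference -1.69, SE 0.21, adjusted p = 0.00157). *Klra17* differed by -1.87, *Klra2* by -1.68 and *Klrb1b* by -1.04. These 5 were picked from the called genes and belong to none of the gene lists, and the measured receptors of the complex that were not called were not counted. The *Klra* genes are near copies of each other, so that probes may read more than 1 of them. Among 20 T and NK cell and innate lymphoid markers limma called none. Without adjustment 1 was higher and 1 lower at p under 0.05, a cut that 2484 of all 19938 genes passed. The methods' *t*-test with a log2 difference over 1 called 0. The mean of the list was 4.90 to 5.20 in CD103+CD11b+ DCs against 4.97 to 5.10 in the CD103-CD11b+ subset. Single arrays ended the calls on *Klrd1*, without CD103+CD11b+ replicate 1 or 2 or CD103-CD11b+ replicate 1, 2 or 3 (adjusted p up to 0.02), *Klra2*, without CD103+CD11b+ replicate 1, 2 or 3 or CD103-CD11b+ replicate 1 or 3 (adjusted p up to 0.0386), and *Klrb1b*, without CD103+CD11b+ replicate 1 or 2 or CD103-CD11b+ replicate 3 (adjusted p up to 0.0107).

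Other lower genes act in cytokine signalling. *Il1rn*, the IL-1 receptor antagonist, had 5.57, 5.60 and 5.69 in CD103+CD11b+ DCs against 7.11, 6.74 and 6.86 in the CD103-CD11b+ subset (log2 difference -1.28, SE 0.12, adjusted p = 2.8e-04), while *Il1a* and *Il1b* differed by 0.40 and -0.07 (adjusted p = 0.648 and 0.939). *Osm*, the cytokine oncostatin M, had 4.08, 4.17 and 4.38 against 5.41, 5.59 and 5.53 (log2 difference -1.30, SE 0.09, adjusted p = 8.0e-05). *Socs3*, an inhibitor of cytokine receptors, differed by -1.20 and a second probeset of it by -1.28 (adjusted p = 0.00241 and 0.000781), and the call on the first was lost without CD103-CD11b+ replicate 1, 2 or 3 (adjusted p up to 0.0158). Both receptors called in the growth factor list of 16 genes, *Csf1r* and *Csf3r*, were lower, against 0.306% of all genes called lower. *Csf2ra* and *Csf2rb*, which form the GM-CSF receptor, differed by 0.38 and 0.43 (adjusted p = 0.169 and 0.0728). *Ier3*, an immediate early gene, was the only one called of 26 immediate early and heat shock genes, at -1.60, against the same share of all genes. *P2ry6* and *P2ry13*, receptors for extracellular nucleotides, differed by -1.47 and -1.47, and single arrays ended both calls, for *P2ry6* without CD103+CD11b+ replicate 1 or 2 or CD103-CD11b+ replicate 1 or 3 (adjusted p up to 0.013) and for *P2ry13* without CD103+CD11b+ replicate 1, 2 or 3 or CD103-CD11b+ replicate 1 or 3 (adjusted p up to 0.0184).

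**Figure D3:**
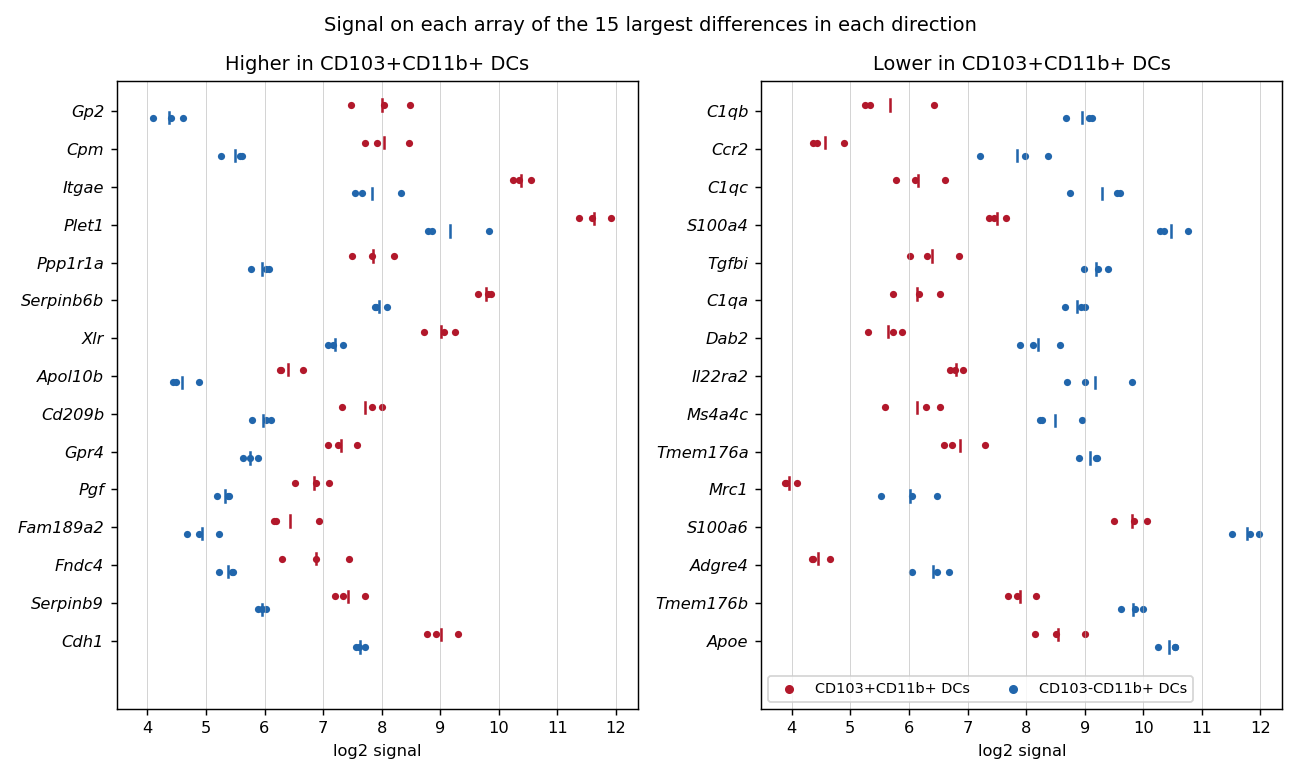
Log2 signal on each of the 6 arrays (points) and the mean of each subset (vertical bars) for the 15 called genes with the largest differences in each direction. Genes were drawn from called genes without overlap. CD103+CD11b+ DCs (red) therefore lie wholly on one side of CD103-CD11b+ DCs (blue) by selection. The widest difference in means was that of *Gp2* (7.998 and 4.37).

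The gene with the largest difference of all was higher in CD103+CD11b+ DCs. *Gp2*, a GPI-linked glycoprotein known as a receptor for bacteria on M cells and as a granule protein of the exocrine pancreas, had 8.48, 8.04 and 7.47 in CD103+CD11b+ DCs against 4.61, 4.10 and 4.40 in the CD103-CD11b+ subset. The difference was 12.4-fold (log2 difference 3.63, SE 0.38, adjusted p = 6.1e-04), and the other 3 populations lay at 4.27 ± 0.91 in the CD103+CD11b- subset, 4.47 ± 0.69 in CD103-CD11b- DCs and 3.82 ± 0.10 in mϕ. A transcript of the exocrine pancreas was high on some arrays. *Ctrb1*, which encodes chymotrypsinogen, had 6.84, 10.75 and 10.09 in CD103+CD11b+ DCs against 4.78, 5.03 and 10.70 in the CD103-CD11b+ subset. On CD103-CD11b+ replicate 3, where *Ctrb1* was at 10.70, *Gp2* was at 4.40. With the mean of the pancreatic genes as a covariate *Gp2* differed by 3.44 (adjusted p = 0.000748). The part of pancreatic RNA in the difference was not tested.

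*Plet1*, a GPI-linked surface protein, had 11.91, 11.58 and 11.36 in CD103+CD11b+ DCs against 9.83, 8.86 and 8.80 in the CD103-CD11b+ subset (log2 difference 2.46, SE 0.25, adjusted p = 4.6e-04), and it was also high in CD103-CD11b- DCs, at 10.37 ± 0.32. *Cdh1*, E-cadherin, the ligand of the CD103 integrin, had 9.30, 8.78 and 8.93 against 7.61, 7.57 and 7.71 (log2 difference 1.38, SE 0.14, adjusted p = 4.4e-04). They were the 2 called genes, both higher, of 31 adhesion and junction genes, against 0.231% of all genes called higher. Of the 31, 26 had a difference above 0 (median 0.25, against -0.01 over all genes). *Epcam*, the epithelial cell adhesion molecule, had 8.28, 8.19 and 8.31 against 7.77, 7.20 and 7.59 and did not pass (log2 difference 0.74, SE 0.15, adjusted p = 0.0222). *Cdh17*, the cadherin of gut epithelium, differed by 0.99 (adjusted p = 0.0167). Markers of epithelial cells, given later, were higher on the same arrays. With their mean as a covariate *Plet1* differed by 2.93 and *Cdh1* by 1.52, with an adjusted p of 0.0252 and 0.043.

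Of 30 epithelial markers limma called none. All 30 had a difference above 0 (median 0.73, range 0.11 to 1.37). At p under 0.05 without adjustment, which 2484 of all 19938 genes passed, 23 were higher and 0 lower. The methods' *t*-test at that cut found 8 that differed by over 1. With the replicate number as a block 7 were called. Their mean signal was 6.73, 6.92 and 7.41 in CD103+CD11b+ DCs against 6.28, 6.10 and 6.33 in the CD103-CD11b+ subset, without overlap. It was 6.87 to 7.18 in CD103+CD11b- DCs and 6.08 to 7.57 in mϕ. *Vil1*, which encodes villin, differed by 0.74 (adjusted p = 0.0772) and *Fabp1*, the liver-type fatty acid binding protein of enterocytes, by 1.04 (adjusted p = 0.0634). The 20 pancreatic acinar genes had means of 5.39, 7.35 and 6.65 in CD103+CD11b+ DCs against 4.95, 5.02 and 7.06 in the CD103-CD11b+ subset, which overlapped, and limma called none of them (2 higher without adjustment, 0 by the methods' *t*-test with a log2 difference over 1). With the epithelial mean as a covariate 13 genes were higher and 26 lower, and 33 of the 107 were called again. That covariate itself separates the subsets. All 107 genes kept their direction in that fit, and the median ratio of their differences to those without the covariate was 1.23. Without the 1 array of each subset richest in pancreatic RNA, which leaves 2 of each subset, 5 genes were higher and 5 lower. All 107 genes kept their direction there, which was fixed in advance, as their arrays do not overlap between the subsets. The part of epithelial RNA in single differences was not tested.

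**Figure D4:**
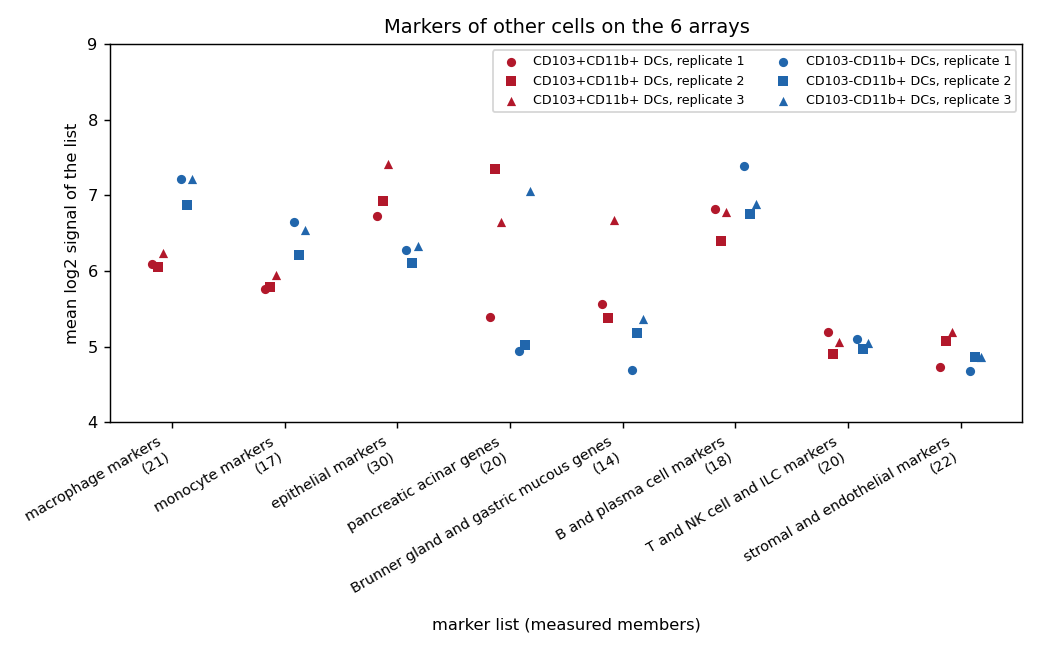
Mean log2 signal of 8 marker lists of other cells on each of the 6 arrays (points, with shapes for replicates 1 to 3). The epithelial mean was higher (6.73 to 7.41 against 6.10 to 6.33) and the mϕ mean lower (6.06 to 6.24 against 6.87 to 7.21) in CD103+CD11b+ DCs, without overlap, while the pancreatic means overlapped.

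*Cpm*, a membrane carboxypeptidase, had 7.92, 8.46 and 7.71 in CD103+CD11b+ DCs against 5.62, 5.59 and 5.26 in the CD103-CD11b+ subset, a 5.83-fold difference (log2 difference 2.54, SE 0.25, adjusted p = 4.0e-04), and lay at 4.05 ± 0.16 in mϕ. *Serpinb6b*, an inhibitor of intracellular proteases, had 9.82, 9.87 and 9.64 against 7.88, 8.09 and 7.90, the smallest adjusted p of all genes (log2 difference 1.82, SE 0.09, adjusted p = 2.0e-05), and its neighbour on the chromosome, *Serpinb9*, which inhibits granzyme B, had 7.33, 7.71 and 7.21 against 5.95, 5.89 and 6.02 (log2 difference 1.46, SE 0.16, adjusted p = 6.6e-04). Both were as high or higher in CD103+CD11b- DCs, at 10.72 ± 0.08 and 7.68 ± 0.30. No other gene of 26 serpins of this family and cathepsins was called, where 0.231% of all genes were higher and 0.306% lower. *Serpinb6a* and *Serpinb1a* differed by 0.50 and 0.54 (adjusted p = 0.181 and 0.0857).

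C-type lectin receptors bind sugars of microbes and of host proteins. Of 29 measured, 4 were higher and 3 lower (median -0.13), against 0.231% and 0.306% of all genes. *Cd209b*, also known as SIGNR1, had 7.996, 7.84 and 7.32 in CD103+CD11b+ DCs against 5.78, 6.03 and 6.12 in the CD103-CD11b+ subset (log2 difference 1.74, SE 0.17, adjusted p = 4.6e-04), and *Cd209c* was higher by 1.26 (adjusted p = 0.00315). The related gene *Cd209d* beside them had 4.61, 4.35 and 4.49 against 5.94, 5.19 and 5.71, the other direction (log2 difference -1.13, SE 0.16, adjusted p = 0.00358), and *Cd209a* did not differ beyond its error (0.05, adjusted p = 0.943). In the Clec4a family *Clec4a3* had 4.11, 3.91 and 4.27 against 5.82, 5.50 and 5.62 (log2 difference -1.55, SE 0.11, adjusted p = 8.0e-05), whereas its neighbour *Clec4a4*, an inhibitory receptor of CD11b+ DCs, had 7.36, 7.68 and 7.07 against 6.54, 5.83 and 6.29 (log2 difference 1.15, SE 0.19, adjusted p = 0.00729). *Clec4b2*, of the same cluster but not among the 29 listed genes, was higher by 1.21. The genes of either family are close copies and their probes may share transcripts. The remaining called genes of the list were *Ly75*, which encodes the endocytic receptor DEC-205 and was higher by 1.16, and *Mrc1*. Leaving out single arrays ended the calls on *Cd209c*, without CD103-CD11b+ replicate 1, 2 or 3 (adjusted p up to 0.0179), *Cd209d*, without CD103+CD11b+ replicate 1, 2 or 3 or CD103-CD11b+ replicate 1 or 3 (adjusted p up to 0.0221), *Clec4a4*, without CD103+CD11b+ replicate 1 or 2 or CD103-CD11b+ replicate 2 or 3 (adjusted p up to 0.0342), *Clec4b2*, whichever of the 6 arrays was left out (adjusted p up to 0.0387), and *Ly75*, without CD103-CD11b+ replicate 3 (adjusted p up to 0.0105).

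Of 29 measured receptors of the Siglec, CD300, LILR, PILR and TREM families 2 were higher and none was lower, against 0.231% and 0.306% of all genes. *Siglecf*, a sialic acid-binding inhibitory receptor, had 7.32, 7.17 and 7.25 in CD103+CD11b+ DCs against 6.01, 6.13 and 5.59 in the CD103-CD11b+ subset (log2 difference 1.34, SE 0.14, adjusted p = 5.0e-04), and the other eosinophil genes *Prg2*, *Epx* and *Ccr3* differed by -0.51, 0.04 and -0.57, none of which passed. *Trem1*, an activating receptor of myeloid cells, had 8.80, 8.20 and 8.35 against 7.28, 6.99 and 7.04 (log2 difference 1.35, SE 0.16, adjusted p = 0.00151), and its call was lost without CD103-CD11b+ replicate 3 (adjusted p up to 0.0105). *Cd101*, an inhibitory surface protein, had 9.42, 9.03 and 9.16 against 7.96, 7.93 and 7.98 (log2 difference 1.25, SE 0.11, adjusted p = 2.0e-04) and lay at 4.60 ± 0.14 in CD103+CD11b- DCs. All 3 genes, like *Gp2* and *Cdh1*, were named by the study from these arrays, so their direction here is not independent evidence. For protein, the study's flow cytometry found TREM1 only on CD103+CD11b+ DCs of the LP. It found CD101 on most of those cells and on some CD103-CD11b+ DCs. GP2 and E-cadherin were not reliably seen at the surface. *Cd33* and *Siglece* differed by 0.79 and 0.64 (adjusted p = 0.0028 and 0.107), short of the thresholds.

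The higher genes also held receptors, transporters and enzymes of other kinds. *Gpr4*, a proton-sensing receptor, had 7.58, 7.25 and 7.07 in CD103+CD11b+ DCs against 5.75, 5.89 and 5.63 in the CD103-CD11b+ subset (log2 difference 1.55, SE 0.14, adjusted p = 2.1e-04). *Pgf*, placental growth factor, had 6.87, 7.11 and 6.53 against 5.40, 5.37 and 5.18 (log2 difference 1.52, SE 0.15, adjusted p = 4.6e-04) and was also high in mϕ, at 7.68 ± 0.40. *Ppp1r1a*, an inhibitor of protein phosphatase 1, had 8.22, 7.83 and 7.50 against 6.07, 5.77 and 6.02 (log2 difference 1.90, SE 0.16, adjusted p = 1.4e-04). These calls held whichever of the 6 arrays was left out. *Xlr*, *Apol10b*, *Fam189a2* and *Fndc4* were higher by 1.81, 1.80, 1.51 and 1.49, *Mylk*, myosin light chain kinase, by 1.37 and *Slc52a3*, a riboflavin transporter, by 1.12. *Card9*, the adaptor that carries lectin receptor signals, was higher by 1.05 (adjusted p = 0.00758). Single arrays ended the calls on *Fam189a2*, without CD103-CD11b+ replicate 2 or 3 (adjusted p up to 0.0183), *Fndc4*, without CD103+CD11b+ replicate 2 or CD103-CD11b+ replicate 1, 2 or 3 (adjusted p up to 0.0212), and *Card9*, without CD103+CD11b+ replicate 1 or 2 or CD103-CD11b+ replicate 1, 2 or 3 (adjusted p up to 0.0342).

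Among 38 transcription factors of DCs and mϕ limma called none (6 higher and 10 lower at p under 0.05 without adjustment, 0 by the methods' *t*-test with a log2 difference over 1). That unadjusted cut was passed by 2484 of all 19938 genes. *Irf4*, on which CD11b+ DCs depend, had 9.39, 9.50 and 9.14 in CD103+CD11b+ DCs against 8.79, 8.70 and 8.75 in the CD103-CD11b+ subset, without overlap (log2 difference 0.60, SE 0.14, adjusted p = 0.0484). *Zeb2*, a transcriptional repressor, had 6.55, 6.77 and 6.76 against 7.57, 7.51 and 7.59, also without overlap, and missed the log2 threshold (log2 difference -0.86, SE 0.12, adjusted p = 0.00341). *Sirpa*, the receptor for CD47, overlapped between the subsets, with 10.13, 9.83 and 9.92 against 10.22, 10.03 and 9.94. Of 18 markers of CD11b+ DCs (cDC2), *Cd101* and *Clec4a4* were higher and *Csf1r* was lower, with a median of -0.04, and over all genes 0.231% were higher and 0.306% lower. Of 18 markers of CD103+CD11b- DCs (cDC1), *Ifi205* was lower (-1.25) and none was higher. Single arrays ended the calls on *Clec4a4*, without CD103+CD11b+ replicate 1 or 2 or CD103-CD11b+ replicate 2 or 3 (adjusted p up to 0.0342), and *Ifi205*, without CD103+CD11b+ replicate 1 or 3 or CD103-CD11b+ replicate 1, 2 or 3 (adjusted p up to 0.0445).

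Among lists of other pathways, limma called 0 of 17 class II presentation genes, 0 of 23 retinoic acid genes, 0 of 28 Notch pathway genes, 0 of 27 maturation and migration genes, 0 of 22 Toll-like receptors and adaptors, 0 of 25 interferon-stimulated genes, 0 of 32 cell cycle genes and 0 of 11 Fc receptors. With 0.231% of all genes called higher and 0.306% lower, a count of 0 in lists of this size is the background and no result about them. Without adjustment, at p under 0.05 and in the same order, 1 and 0 were higher and lower, then 2 and 1, 3 and 5, 7 and 7, 1 and 9, 1 and 13, 0 and 6 and 1 and 3. Among all 19938 genes 2484 passed that cut in limma, in either direction. With a log2 difference over 1 the methods' *t*-test called no gene of these lists except 1 Fc receptor gene, *Fcgr2b*, which encodes the inhibitory receptor for IgG and differed by -1.01 (adjusted p = 0.0416) in limma. *Aldh1a2*, the enzyme that makes retinoic acid in gut DCs, differed by 0.24 (adjusted p = 0.234) and *Notch2*, a receptor that CD11b+ DCs need, by -0.28 (adjusted p = 0.229). Among interferon-stimulated genes the median was -0.27, with *Bst2* at -0.63 (adjusted p = 0.043). *Gbp2b*, an interferon-induced GTPase that is not on that list, was called at -1.55.

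**Figure D5:**
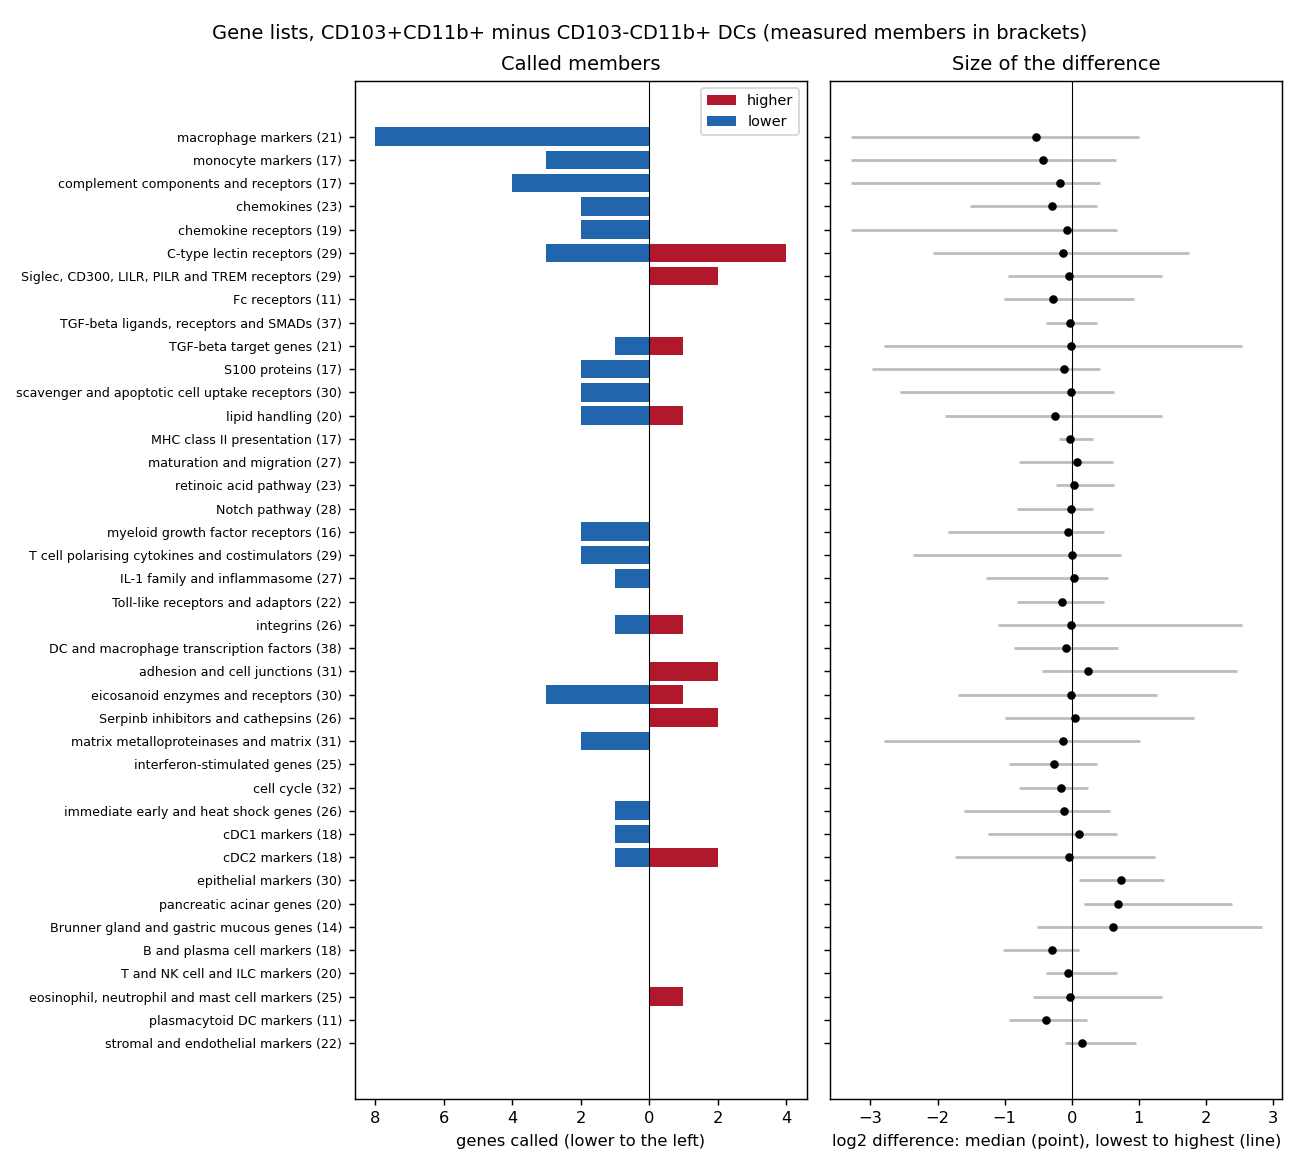
For each gene list (measured members in brackets), the left panel counts called genes, higher to the right in red and lower to the left in blue, and the right panel gives the median log2 difference (point) with the lowest and highest member (line). The mϕ list had 8 called genes, all lower, and the epithelial list had every member above 0 and none called.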

How the data were processed

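RNA of sorted small intestinal DCs and mϕ was measured on 1-colour Affymetrix mouse gene arrays, 3 for each population. The deposited log2 values were made by the authors with robust multi-array averaging, which corrects the background, applies quantile normalization across arrays and summarizes the probes of a probeset; quantile normalization removes any difference in overall level between arrays. No genome build for the arrays is given in the sources used here. Depth has no meaning for arrays, and their number limits the precision.

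Probesets that the platform annotation gives 1 symbol were kept, with the probeset of highest mean for each gene, which left 19938 genes. limma 3.58.1 in R 4.3.3 was fitted (lmFit and eBayes, no covariate) to 9 arrays, those of both CD11b+ subsets and of CD103+CD11b- DCs, which share 1 estimate of the spread, as the study analysed these subsets together. A call needed a log2 difference above 1 in size and, after Benjamini-Hochberg adjustment over all genes, p under 0.01. The same kind of fit was also run on simulated arrays with independent noise for each gene and array. They held no pairing of arrays and no shared signal of other cells, and no result is drawn from them. The members and the 42 gene lists were chosen with earlier results of these data known, and lists were counted and not tested. Named genes are the 15 called genes with the largest differences in each direction, the genes of the sort and those the study named, called list members with up to 6 members that were not called, and further called genes.

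The titles number the replicates 1 to 3. Deviations from the group means of same-numbered arrays of the compared subsets correlated at 0.221, 0.126 and 0.172. With CD103+CD11b- DCs such correlations ran from -0.0367 to 0.353. Arrays with unlike numbers also correlated in places, at 0.221 for CD103+CD11b- replicate 2 with CD103-CD11b+ replicate 3. The numbers may pair the arrays, but the labels do not say so. The 46 and 61 calls come from the fit without a block, and the block was an alternative. Alternatives were a block for the replicate number, other tests, thresholds, scalings, array sets, covariates and leaving out single arrays. The methods' *t*-test is the Student's *t*-test that the study's methods name for comparing groups, applied here to the 6 arrays. Those methods state no test for the arrays. Promoter sequences are from RefSeq (GRCm38.p6), which had a window for 88 of the 107 called genes. Python 3.11.15 with pandas 2.3.3, numpy 2.4.6 and matplotlib 3.10.9 made the tables and figures.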

Additional observations from a re-analysis of the deposited data

How the results depend on the processing

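All 107 called genes kept their direction under each of the 25 alternatives in which they were tested. Most of these could not have turned a sign, because the arrays of these genes do not overlap between the subsets. Only the covariates, the other scalings and the averaging of a gene's probesets could have done so. The counts of called genes, 46 higher and 61 lower, moved most under a test against the log2 threshold itself (treat, 2 and 7), the methods' *t*-test at an adjusted p under 0.05 (1 and 0, with 59 and 72 at an unadjusted p under 0.05), the mean epithelial signal as a covariate (13 and 26) and the loss of the 1 array of each subset richest in pancreatic RNA (5 and 5). Leaving out 1 array gave 23 to 50 higher and 35 to 65 lower genes. The cause of these shifts was not tested. With the replicate number as a block, 60 genes were higher and 69 lower, all 107 among them, and of the lists with no called gene 7 epithelial, 1 B and plasma cell and 1 Brunner gland or gastric gene passed. The called C-type lectins went from 7 to 8, mϕ markers from 8 to 9, cDC2 markers from 3 to 4 and matrix genes from 2 to 3. *Adgre1* and *Muc6* passed as well (adjusted p = 0.00978 and 0.00187), and the block changed no other call of a gene named here.

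Among the called, sort and study genes followed under these alternatives, signs turned for 6, none of them called. *Itgam* differed by -0.091 with the epithelial covariate, -0.015 with the pancreatic one, -0.011 without the arrays richest in pancreatic RNA, and -0.015 to 0.091 with 1 array left out. *Ptprc* differed by -0.12 to 0.033 and *Mgl2* by -0.17 to 0.23 with 1 array left out. With the epithelial covariate *Mgl2* differed by -0.33, *Xcr1* by -0.044 and *Sirpa* by 0.035. *Cd209a* differed by -0.021 with the pancreatic covariate and -0.018 without the richest arrays.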

Other observations

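Of the 107 called genes, 106 had a place in the RefSeq gene order, and 18 of them formed 10 pairs of direct neighbours. The share of such pairs among other genes was not computed. In 7 pairs both genes moved the same way, as in the C1q, *Tmem176*, *Ccl9* and *Ccl6*, and *Serpinb6b* and *Serpinb9* pairs. In 3 pairs they moved in opposite directions, namely *Samd9l* and *Hepacam2*, *Clec4a3* and *Clec4a4*, and *Cd209d* and *Cd209b*. Members of such families are near copies, and probes that read more than 1 of them were not examined.

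Some large differences did not pass. *Tff2* and *Gkn3*, secreted proteins of gastric mucous cells, differed by 2.84 and 2.13 (limma, adjusted p = 0.172 and 0.097), *Muc6*, a gastric mucin, by 2.18 (0.024, and 0.00187 with the replicate number as a block, where it passed) and *Ctrb1* by 2.39 (0.707). *Glul*, glutamine synthetase, was lower by its brighter probeset (-1.35, adjusted p = 0.000627) and did not pass by a dimmer one (-0.33, adjusted p = 0.312).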
